A study of Mus musculus with 6 samples.

Results

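The glycosaminoglycan pathway was examined in leukemic cells of a mouse model of blast crisis chronic myeloid leukemia (bcCML), through 44 of the 36083 genes of a per-library expression table. The members were chosen by name: enzymes that build the linker, heparan sulfate and chondroitin sulfate, enzymes that edit or cleave heparan sulfate, suppliers of their substrates, and core proteins other than syndecans. The choice used no threshold on a measured value, but it was made with earlier results of these data known. All 44 were found in the table by gene identifier.

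Glycosaminoglycans are long sulfated sugar chains that are attached to serine residues of core proteins, and a core with its chains is a proteoglycan. A short linker is built first, and the next sugar added decides whether the chain becomes heparan sulfate or chondroitin sulfate. Sulfotransferases then place sulfate groups that bind growth factors, chemokines and matrix proteins. Serglycin, encoded by Srgn, is the proteoglycan of the secretory granules of blood cells, whereas syndecans and glypicans carry heparan sulfate at the cell surface.

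RNA was sequenced from 3 libraries labelled WT and 3 labelled Sdc1-/-. In both groups, the oncogenes BCR-ABL and NUP98-HOXA9 were introduced by infection into KLS cells (Kit+ Lin- Sca1+ progenitors) of donor mice, double-positive cells were transplanted, and Lin- bcCML cells were sorted from the spleens of the recipients, which the labels give as NSG, a strain that lacks its own lymphocytes. The labels give the donor background as B6, and the Sdc1-/- donors lacked functional syndecan-1 in all their cells, not in the leukemia alone. The comparison sets leukemia labelled Sdc1-/- beside WT leukemia, and syndecan-1 is itself a carrier of heparan sulfate. Other differences between the groups, given below, cannot be told apart from the loss of syndecan-1.

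Values are TPM (transcript abundances corrected for transcript length) that the authors rescaled between libraries, and they are called levels here. Genes were tested with limma on log2(level + 1), and a gene was called higher or lower at a Benjamini-Hochberg adjusted p under 0.05 over the 12155 genes with a mean level of at least 1. Fold changes are on that log2 scale, on which the change of a low gene is understated. The authors describe RNA-seq of Lin- WT bcCML cells as 3 technical replicates, and the labels do not say whether the libraries of either group came from separate mice. The p-values and SDs may therefore measure technical spread only.

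Sdc1 itself was checked first. Its level was 1.75, 1.21 and 1.51 in the WT libraries, and 3.85, 3.80 and 4.12 in those labelled Sdc1-/-, a log2 difference of 0.99 with a standard error of 0.093 (limma adjusted p = 0.000118). The mRNA was therefore higher where the label says that the gene was lost. The value, taken over the whole gene, does not test the disrupted part or the protein. The authors describe a disrupted signal sequence that keeps mature syndecan-1 off the cell surface. They report checks of the deletion by PCR and immunofluorescence, without saying that these used the sequenced samples. Because of the higher mRNA, the second group is named by its label throughout. The groups differed broadly: 60.7% of all tested genes were called, 29.3% higher and 31.3% lower in libraries labelled Sdc1-/-. Correlations of libraries across genes were 0.993 to 0.996 within groups and 0.968 to 0.972 between them, where genes are not independent replicates. Eif2s3y, Ddx3y, Kdm5d and Uty are genes of the Y chromosome. Their summed level was 0.276 to 0.308 in WT and 68.1 to 78.4 in libraries labelled Sdc1-/-. Whether the donors differed in sex was not tested, and such a difference could not be told apart from the label. The sums of all levels were 1048875 to 1058263 in WT and 944973 to 951814 in the other group. Setting every library to a sum of 1000000 moved the median log2 difference of all genes from -0.01 to 0.12, and calls that this scaling changed are named below.

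Serine residues directly followed by glycine are the usual sites at which the chains start, and the codons for these pairs are shown because they set serglycin apart from the other core proteins. The stretches below are coding sequence of GENCODE M21 transcripts, on the coding strand of GRCm38, with serine and glycine codon pairs in capitals.
Srgn, chr10:62494992-62495063, minus strand: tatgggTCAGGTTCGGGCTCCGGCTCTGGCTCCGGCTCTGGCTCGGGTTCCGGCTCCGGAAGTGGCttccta
Gpc1, chr1:92858337-92858378, plus strand: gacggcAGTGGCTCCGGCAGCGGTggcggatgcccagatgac
Gpc3, chrX:52314892-52314933, minus strand: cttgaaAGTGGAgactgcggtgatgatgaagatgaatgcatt
Gpc4, chrX:52053680-52053721, minus strand: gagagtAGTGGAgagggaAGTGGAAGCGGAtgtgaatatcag
Gpc6, chr14:117974889-117974930, plus strand: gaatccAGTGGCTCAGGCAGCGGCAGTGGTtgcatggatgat
The Srgn stretch covers codons 88 to 111 of 152 and holds all 10 of its pairs in an unbroken run. Among 21752 mouse genes with a complete coding sequence, 1 had a run this long, Srgn itself. The glypicans Gpc1, Gpc6, Gpc4 and Gpc3 had 6, 5, 4 and 2 pairs over coding sequences of 555 to 579 codons, with longest runs of 3, 4, 2 and 1 pairs. For Gpc1, Gpc4 and Gpc6 the 14 codons around the densest cluster are shown. The 14 codons of Gpc3 hold 1 of its 2 pairs, and so no cluster.

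Srgn was by far the highest of the 44 genes, at rank 113 of all 36083 by mean level, and it was lower in libraries labelled Sdc1-/-. Its level was 2048, 2094 and 2124 in WT and 1299.9, 1346 and 1348 in libraries labelled Sdc1-/-. The groups did not overlap, and the means were 2089 ± 38.1 and 1331 ± 27.2 (SD, n = 3 libraries each), a ratio of 0.637. The log2 difference was -0.65 with a standard error of 0.031 (limma adjusted p = 6.17e-06), and it lay between -0.66 and -0.43 over 15 alternative fits. Called genes with a fall of at least 0.5 made up 10.2% of all tested genes. Srgn accounted for 99.94% of the summed level of the 5 core proteins in WT and for 99.97% in the other group.

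The 4 glypicans among the members, anchored to the membrane by a lipid, were low or nearly absent. Gpc1 was at 1.14, 1.07 and 1.25 in WT and at 0.282, 0.297 and 0.292 in libraries labelled Sdc1-/-. These groups did not overlap, but the mean over the 6 libraries was below 1 and Gpc1 was not among the genes tested; in the fit without a minimum mean its log2 difference was -0.74 (limma adjusted p = 0.000218). Gpc3, Gpc4 and Gpc6 stayed at or below 0.135 in every library. Other glypicans, named here after their values were seen, did not all follow Gpc1. Gpc2 was at 0.366, 0.211 and 0.371 in WT and at 1.66, 1.597 and 1.43 in libraries labelled Sdc1-/- (log2 difference 0.96 without a minimum mean, limma adjusted p = 0.000414), and Gpc5 went from a mean of 1.24 to 0.552 (log2 difference -0.53, limma adjusted p = 0.00304). Syndecans other than Sdc1 had group means of at most 0.581.

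**Figure D1:**
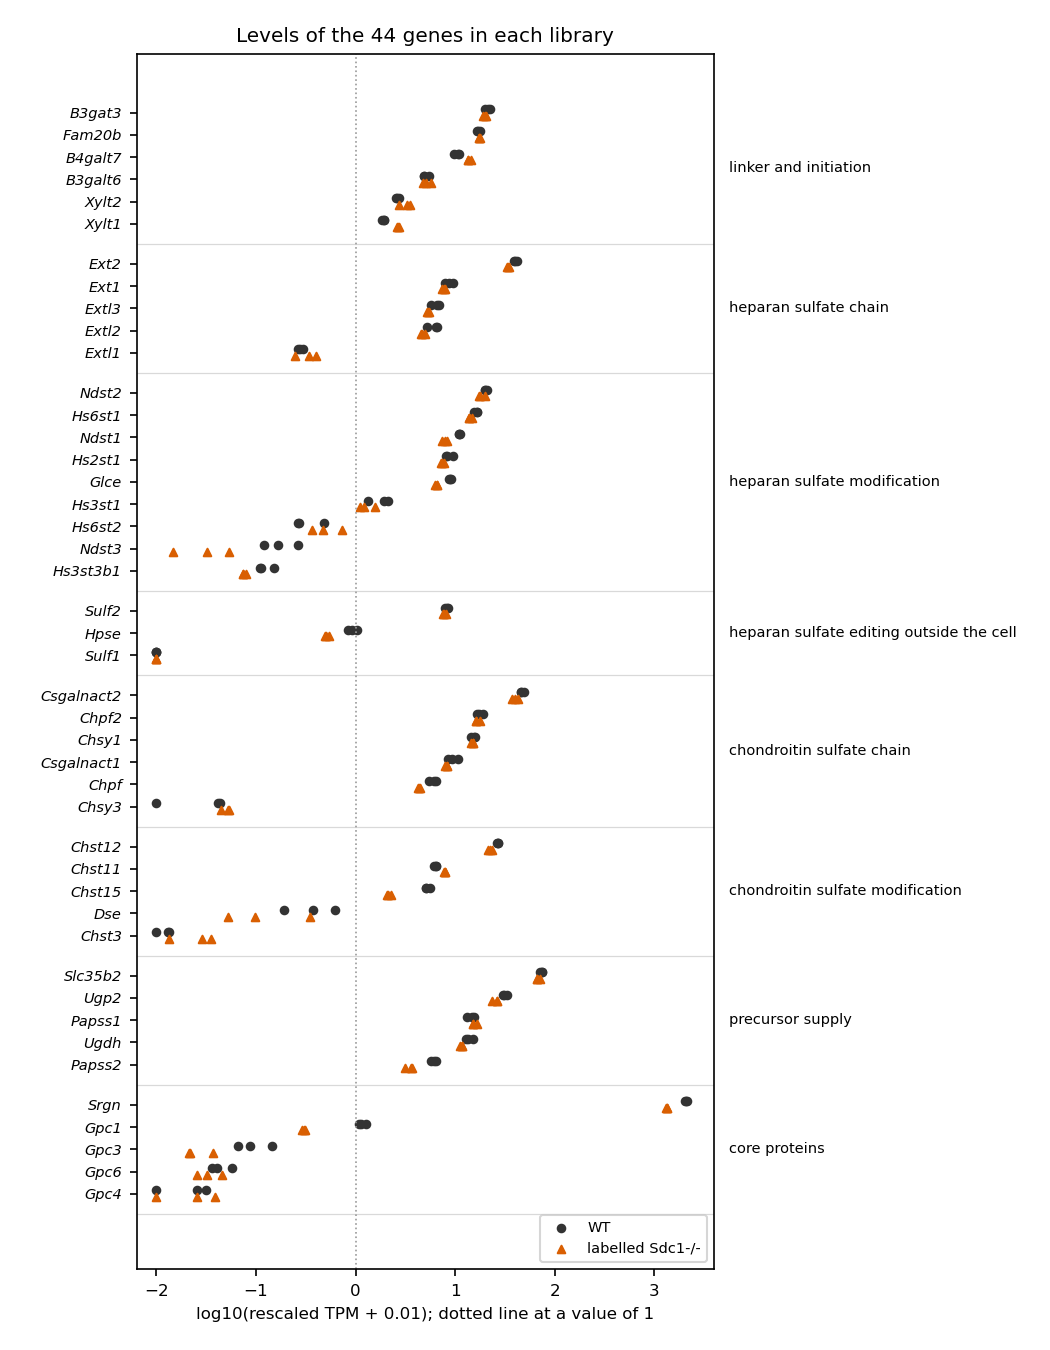
Level of each of the 44 genes in each library, as log10(rescaled TPM + 0.01), grouped by role, with circles for WT and triangles for libraries labelled Sdc1-/-. Srgn lies far to the right of all enzymes, and 13 genes have a mean below 1 over the 6 libraries.

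Of the 44 genes, 31 reached a mean of 1 and were tested, and each of these had a mean above 1 in both groups. The other 13 were Gpc1, Gpc3, Gpc4, Gpc6, Extl1, Ndst3, Hs6st2, Hs3st3b1, Sulf1, Hpse, Chsy3, Chst3 and Dse. Among the 31, 3 were called higher (Xylt1, B4galt7 and Chst11) and 15 lower, beside 29.3% and 31.3% of all tested genes. The groups did not overlap, with the libraries labelled Sdc1-/- below, for 17 of the 31, beside 34.2% of all tested genes, and above for 3, beside 32.6%. The median log2 difference of the 31 was -0.19 and that of all tested genes -0.01. With each library set to a sum of 1000000, 6 were higher and 6 lower, beside 43.5% and 19.5% of all genes, and their median was -0.05 where that of all genes was 0.12. The 6 that were lower under both scalings were Srgn, Chst15, Papss2, Ndst1, Glce and Chpf.

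**Figure D2:**
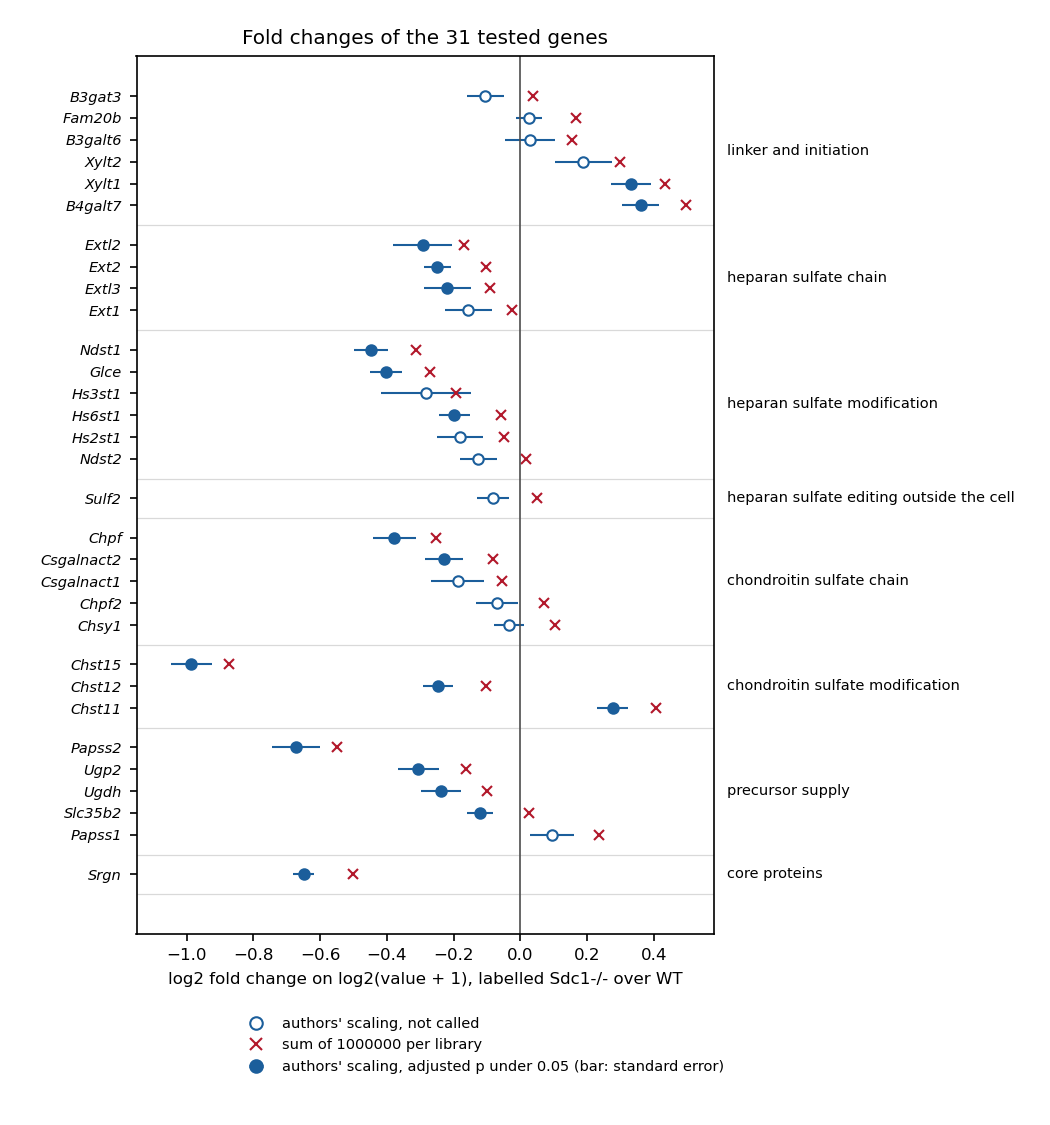
Log2 fold change of the 31 tested genes on log2(level + 1), libraries labelled Sdc1-/- over WT. Circles with standard errors are on the authors' scaling, filled where the adjusted p was under 0.05, and crosses are after setting each library to a sum of 1000000, which lies to the right of the circle for every gene.

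The linker of xylose, galactose and glucuronic acid is common to heparan sulfate and chondroitin sulfate. Its 6 enzymes were the only role group with more members called higher than lower, 2 against 0. Of all tested genes, 29.3% were called higher and 31.3% lower, so 2 of 6 higher was near the share of all genes. Xylt1, a xylosyltransferase that starts the linker, was at 1.85, 1.92 and 1.91 in WT and at 2.64, 2.71 and 2.58 in libraries labelled Sdc1-/- (log2 difference 0.33, limma adjusted p = 0.00271). B4galt7, which adds the first galactose, rose from 10.5 ± 0.592 to 13.7 ± 0.63 (SD, n = 3 libraries each), a log2 difference of 0.36 (limma adjusted p = 0.00126). Neither gene's groups overlapped. The second xylosyltransferase, Xylt2, was at 2.53 to 2.74 in WT and at 2.70 to 3.48 in the other group, and was not called.

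Of the other linker genes, B3gat3, which adds glucuronic acid, was at 22.6, 19.99 and 21.4 in WT and at 20.5, 19.8 and 18.9 in libraries labelled Sdc1-/- (log2 difference -0.10, limma adjusted p = 0.144). Fam20b, the kinase that phosphorylates the xylose, was at 16.7, 17.8 and 17.1 in WT and at 17.3, 17.7 and 17.5 in the other group (log2 difference 0.03, limma adjusted p = 0.577). B3galt6, which adds the second galactose, ranged from 4.84 to 5.41 and from 4.76 to 5.70. These 3 genes overlapped between groups. With each library set to a sum of 1000000, Xylt2 and Fam20b were called higher as well (limma adjusted p = 0.0175 and 0.00862). That made 4 of the 6 linker genes, where 43.5% of all genes were called higher under the same scaling.

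Heparan sulfate is polymerized by Ext1 and Ext2 together. In the role group listed for its chain, 3 of 4 tested genes were called lower and 0 higher, beside 31.3% and 29.3% of all tested genes. Ext2 was at 42.3, 39.2 and 40.4 in WT and at 35.1, 33.7 and 33.2 in libraries labelled Sdc1-/- (log2 difference -0.25 with a standard error of 0.041, limma adjusted p = 0.00172). Extl3, which starts the heparan sulfate chain, and Extl2 were lower by 0.22 and 0.29 on the log2 scale. Ext1 ranged from 7.89 to 9.48 in WT and from 7.34 to 7.96 in the other group and was not called, and Extl1 was at 0.237 to 0.387 in all libraries. None of the 4 tested genes was called after setting each library to a sum of 1000000, where Ext2 had a limma adjusted p of 0.0502. The calls of Extl2 and Extl3 were also lost when WT replicate 1, WT replicate 3, or replicate 2 or 3 of the libraries labelled Sdc1-/- was left out, with log2 differences of -0.29 to -0.24 for Extl2 and -0.23 to -0.17 for Extl3, and that of Extl3 without replicate 1 of the latter, at -0.21.

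Ndst enzymes replace acetyl groups of the growing heparan sulfate by sulfate, Glce turns glucuronic into iduronic acid, and the 2-O-, 6-O- and 3-O-sulfotransferases act after them. Ndst1 was at 10.9, 11.0 and 11.1 in WT and at 8.25, 7.82 and 7.34 in libraries labelled Sdc1-/-, a log2 difference of -0.45 (limma adjusted p = 0.0003). Glce fell from 8.88 ± 0.216 to 6.47 ± 0.228 (SD, n = 3 libraries each), a log2 difference of -0.40 (limma adjusted p = 0.000343). Both were called lower in each of the 15 alternative fits as well.

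Ndst2, the highest gene of heparan sulfate modification, was at 20.04, 19.8 and 20.8 in WT and at 17.9, 20.01 and 17.5 in libraries labelled Sdc1-/-, with overlapping groups (log2 difference -0.13, limma adjusted p = 0.0892). Ndst1 made up 35.0% ± 0.50 of the summed Ndst1, Ndst2 and Ndst3 level in WT and 29.7% ± 1.71 in the other group (SD, n = 3 libraries each). Hs6st1, a 6-O-sulfotransferase, was lower by 0.20 on the log2 scale (limma adjusted p = 0.00776), and by 0.06 without a call after the change of scaling. Hs2st1, the 2-O-sulfotransferase, was at 8.05 to 9.57 and 7.25 to 7.72, and Hs3st1, a 3-O-sulfotransferase, at 1.31 to 2.10 and 1.09 to 1.55, and neither was called. Hs6st2, Ndst3 and Hs3st3b1 did not exceed 0.724 in any library. Hs3st3b1 shares 9.81% of its 31-base words with other genes, nearly all with its paralog Hs3st3a1, so its reads are less certain.

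After the chain is made, Sulf1 and Sulf2 remove 6-O-sulfate outside the cell and heparanase, encoded by Hpse, cuts the chain. Sulf1 was listed at 0 in every library, so Sulf2 made up the whole summed level of this pair. Sulf2 was at 8.32, 8.48 and 7.97 in WT and at 8.02, 7.71 and 7.53 in libraries labelled Sdc1-/- (log2 difference -0.08, limma adjusted p = 0.182), and the groups overlapped. Hpse was at 1.02, 0.826 and 0.918 in WT and at 0.533, 0.497 and 0.478 in the other group. Its mean was below the minimum, and its log2 difference without a minimum was -0.35 (limma adjusted p = 0.00443).

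Chondroitin sulfate starts with Csgalnact1 and Csgalnact2 and is extended by Chsy and Chpf proteins. Csgalnact2, the highest of these, was at 45.4, 48.9 and 45.9 in WT and at 37.1, 39.8 and 42.4 in libraries labelled Sdc1-/- (log2 difference -0.23, limma adjusted p = 0.0102). Chpf was lower by 0.38 on the log2 scale (limma adjusted p = 0.002), from 5.96 ± 0.483 to 4.35 ± 0.068 (SD, n = 3 libraries each). Chpf remained lower under the second scaling (limma adjusted p = 0.0112), whereas Csgalnact2 did not pass there (0.248).

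Chpf2, a paralog of Chpf, was at 18.9, 16.4 and 17.6 in WT and at 17.8, 16.4 and 16.1 in libraries labelled Sdc1-/- (log2 difference -0.07, limma adjusted p = 0.366). Chpf thus made up 25.3% ± 1.12 of the pair in WT and 20.6% ± 0.74 in the other group. Chsy1 was at 14.6 to 15.8 and 14.5 to 15.2 and Csgalnact1 at 8.42 to 10.6 and 7.84 to 8.37, without a call, and Chsy3 did not exceed 0.044.

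Sulfation of chondroitin sulfate held the largest log2 difference among the tested enzymes of the 44. Chst15, which adds a second sulfate to galactosamine that already carries one at position 4 and so makes the highly sulfated E unit, lies at chr7:132235780-132317228 (GRCm38, minus strand). Its level was 5.08, 5.52 and 5.03 in WT and 2.04, 2.25 and 2.12 in libraries labelled Sdc1-/-. The means were 5.21 ± 0.269 and 2.14 ± 0.103 (SD, n = 3 libraries each), a ratio of 0.41, and the log2 difference was -0.99 with a standard error of 0.062 (limma adjusted p = 1.88e-05). Over the alternatives it lay between -1.25 and -0.87.

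The 4-O-sulfotransferases Chst11 and Chst12, which make the substrate of Chst15, differed in opposite directions on the authors' scaling. Chst11 was at 6.47, 6.49 and 6.10 in WT and at 7.97, 7.96 and 7.77 in libraries labelled Sdc1-/- (log2 difference 0.28, limma adjusted p = 0.0019). Chst12 was at 26.9, 26.2 and 27.1 in WT and at 23.6, 21.3 and 22.3 in the other group (log2 difference -0.25, limma adjusted p = 0.00292). With each library set to a sum of 1000000 the difference of Chst11 was 0.41 and that of Chst12 -0.10, the latter without a call. Within a library the ratio does not depend on scaling, and the share of Chst11 in the pair was 19.2% ± 0.77 in WT and 26.1% ± 1.03 in libraries labelled Sdc1-/- (SD, n = 3 libraries each), without overlap. Chst3, a 6-O-sulfotransferase, did not exceed 0.026, and Dse, an epimerase that makes dermatan sulfate, ranged from 0.043 to 0.616.

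**Figure D3:**
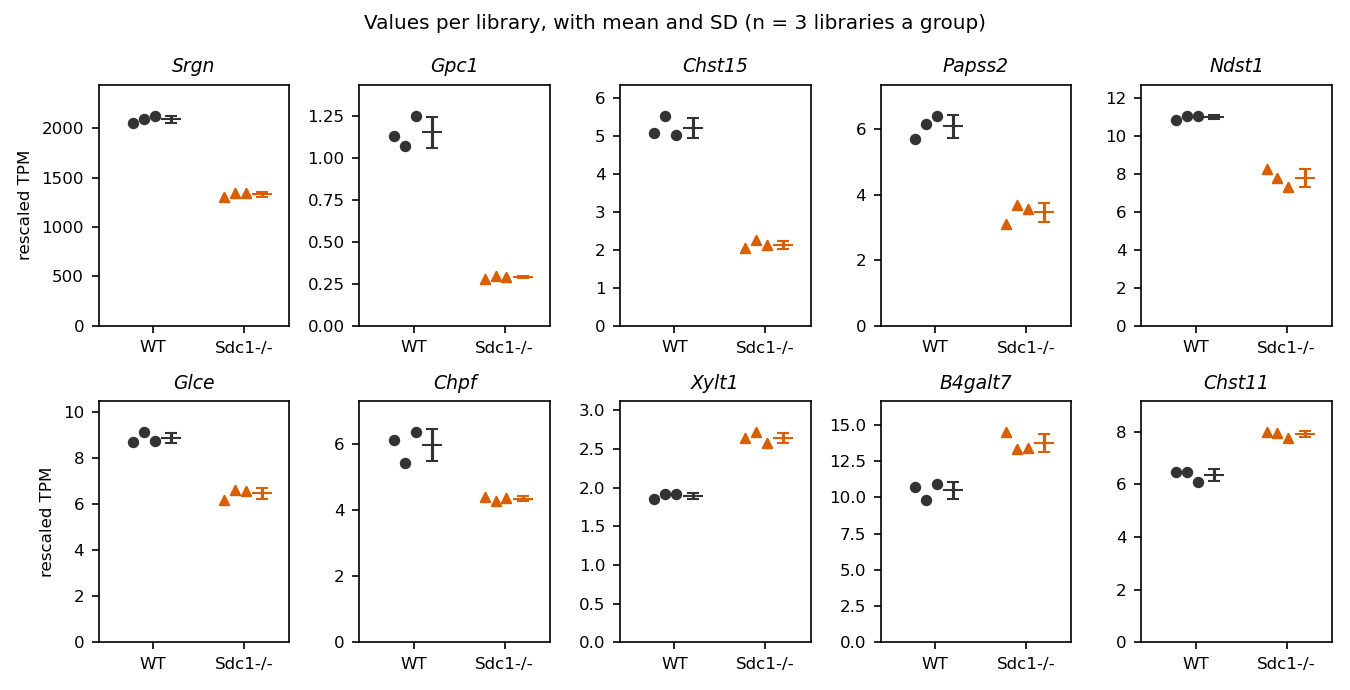
Levels (rescaled TPM, axes from 0) in each library of 10 genes, with mean and SD beside the points (n = 3 libraries a group). Circles (WT) and triangles (libraries labelled Sdc1-/-) do not overlap in any panel. Srgn, Gpc1, Chst15, Papss2, Ndst1, Glce and Chpf are lower and Xylt1, B4galt7 and Chst11 higher in libraries labelled Sdc1-/-. The panels show Gpc1, which was not tested, and the 9 members called in every alternative that tested them, so separation went with the choice. Of all tested genes, 34.2% lay below WT without overlap and 32.6% above.

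Every sulfotransferase draws on PAPS, the sulfate donor, which Papss1 and Papss2 make and Slc35b2 carries into the Golgi. Papss2 (chr19:32595790-32667187, GRCm38, plus strand) was at 5.71, 6.17 and 6.40 in WT and at 3.11, 3.68 and 3.58 in libraries labelled Sdc1-/-. The log2 difference was -0.67 with a standard error of 0.072 (limma adjusted p = 0.000219), and the ratio of means was 0.568. Papss1, at 13.3 to 15.4 in WT and 15.1 to 16.6 in the other group, overlapped and was not called, although it was called higher under the second scaling (limma adjusted p = 0.0175). The share of Papss2 in the pair was 29.6% ± 2.57 in WT and 18.1% ± 1.33 in libraries labelled Sdc1-/- (SD, n = 3 libraries each).

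Slc35b2, the highest enzyme or transporter of the 44, was at 75.2, 71.5 and 74.5 in WT and at 67.2, 70.4 and 65.8 in libraries labelled Sdc1-/-. Its log2 difference of -0.12 (limma adjusted p = 0.0283) changed sign to 0.03 under the second scaling, and the call was lost without WT replicate 1 or 3 or without replicate 1 or 3 of the other group, at -0.11 to -0.10. Ugp2, which makes UDP-glucose, was at 30.4, 33.2 and 31.2 in WT and at 23.2, 26.3 and 26.6 in libraries labelled Sdc1-/- (log2 difference -0.31, limma adjusted p = 0.00433). Ugdh, which oxidizes UDP-glucose to UDP-glucuronic acid, was lower by 0.24 (limma adjusted p = 0.0115). Neither was called after the change of scaling, with limma adjusted p-values of 0.0593 and 0.191.

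**Figure D4:**
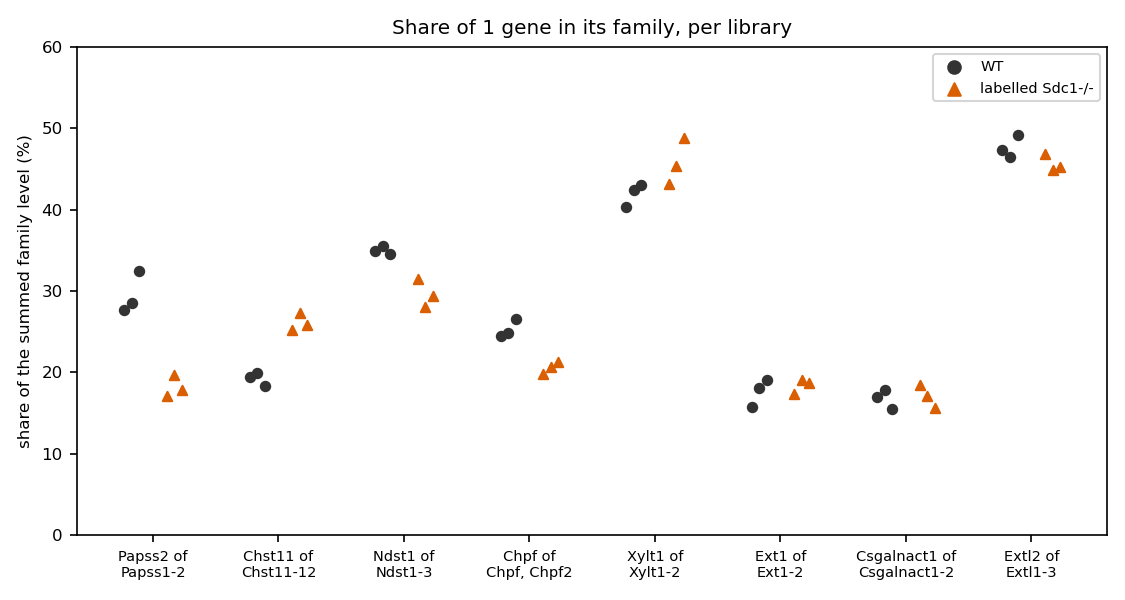
Share (%) of 1 gene in the summed level of its family in each library, with circles for WT and triangles for libraries labelled Sdc1-/-. The shares of Papss2, Ndst1 and Chpf are lower and those of Chst11 and Xylt1 higher in the latter, while the shares of Ext1, Csgalnact1 and Extl2 overlap between groups. For Xylt1 the separation is narrow, with 40.3% to 43.0% in WT and 43.2% to 48.8% in libraries labelled Sdc1-/-.

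Set side by side, the 11 tested enzymes of heparan sulfate had 6 called lower and 0 higher, and the 8 of chondroitin sulfate had 4 lower and 1 higher. Of all tested genes, 31.3% were lower and 29.3% higher. With each library set to a sum of 1000000 these counts were 2 and 0, and 2 and 1, beside 19.5% lower and 43.5% higher, so that the lower calls were near the share of all genes. The summed level of the heparan sulfate enzymes was 136 to 141 in WT and 114 to 118 in libraries labelled Sdc1-/-, and that of the chondroitin sulfate enzymes was 133 to 135 and 115 to 118. Both sums were thus lower without overlap on the authors' scaling, and the difference between the 2 chain types was not tested.

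A further 66 genes of the pathway that are not among the 44 were counted for context, and 37 of them were tested, with 5 higher and 23 lower, beside 29.3% and 31.3% of all tested genes, and a median log2 difference of -0.26. With each library set to a sum of 1000000, 7 were higher and 17 lower, beside 43.5% and 19.5%. Called genes with a rise of at least 0.5 made up 9.35% of all tested genes, and among the 37 tested the single one was Uap1, which makes UDP-N-acetylglucosamine, at 18.1 ± 0.743 in WT and 34.0 ± 1.75 in libraries labelled Sdc1-/-. Without a minimum mean, Gpc2, Agrn and Hyal1 among the untested genes were also called with a rise of at least 0.5, and Gpc5 and Nrp1 with a fall of at least 0.5. Chst13, another 4-O-sulfotransferase of chondroitin, was at 4.12, 3.38 and 3.61 in WT and 1.49, 1.42 and 1.30 in the other group (log2 difference -0.97, limma adjusted p = 7.06e-05). Of the further core proteins, Cd74, the invariant chain of antigen presentation, was lower by 0.95 on the log2 scale. The matrix core protein Vcan was lower by 1.19, but it passed the minimum mean through its WT level alone. The 3 hyaluronan synthases were near 0, with a summed level of at most 0.038.

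Genes listed for the lysosomal breakdown of the chains, not all of them enzymes that act on the chains, were mostly lower. Of 15 tested, 12 were called lower and 1 higher, beside 31.3% and 29.3% of all tested genes, and the median was -0.44. Under the second scaling 9 were lower and 1 higher, beside 19.5% and 43.5%. Arsb, which removes the 4-sulfate of chondroitin and dermatan sulfate, was at 73.1, 76.1 and 75.0 in WT and at 32.6, 33.1 and 32.0 in libraries labelled Sdc1-/- (log2 difference -1.18, limma adjusted p = 9.32e-07). The glycosidase Glb1 was lower by 0.74 on the log2 scale, and the sulfatases Galns and Arsg by 0.63 and 0.52.

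**Figure D5:**
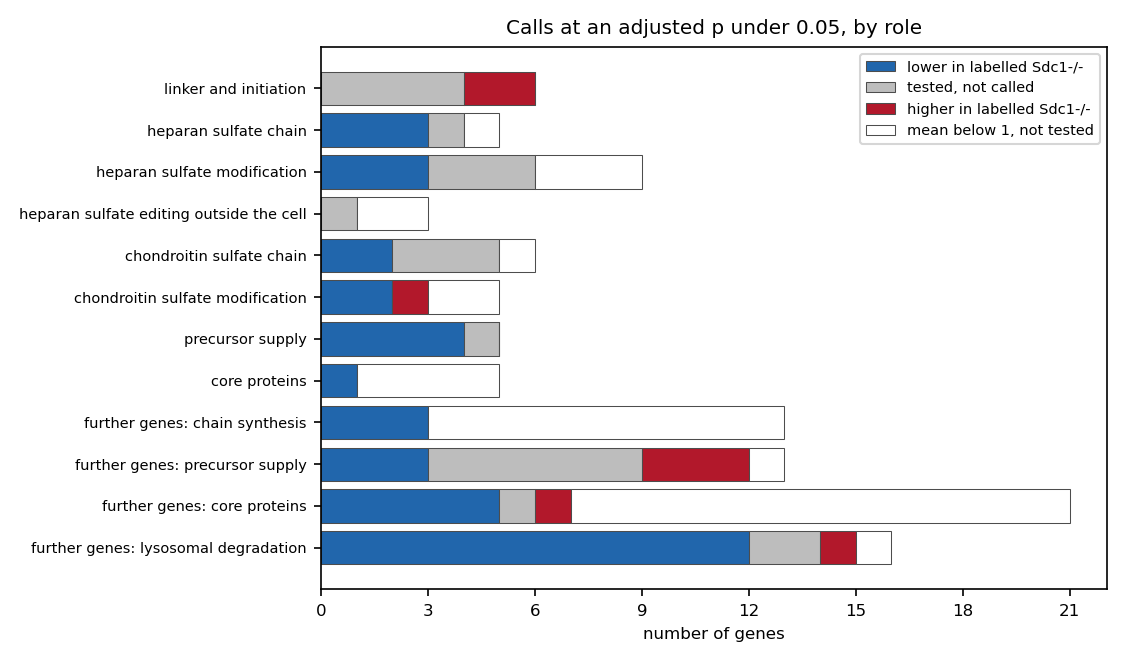
Number of genes in each role group of the 44 and in the further lists that were lower (blue), tested but not called (grey), higher (red) or not tested because the mean was below 1 (white), at a limma adjusted p under 0.05. The linker group has no gene called lower, and the lysosomal list has 12.

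Srgn is known to be abundant in granulated myeloid cells and mast cells, so markers of such cells were read beside it. Each count of markers below stands beside 31.3% of all tested genes called lower and 29.3% called higher. The summed level of 10 neutrophil markers was 12670 to 13620 in WT and 4591 to 4734 in libraries labelled Sdc1-/-, with 10 of 10 called lower. Of 9 tested monocyte and macrophage markers 8 were lower and 1 higher, with sums of 572 to 594 and 256 to 264 for the list of 10. Csf1r, C1qb and C1qc reached the minimum mean through WT alone, and of the other 6 tested, 5 were lower and 1 higher. All 7 tested markers of mast cells and basophils were lower, with sums of 629 to 647 and 210 to 218. One of them, Fcer1a, reached the minimum mean through WT alone, and the other 6 were lower too. The mast cell tryptase genes Tpsb2 and Tpsab1 were not tested. Tpsb2 was at 0.052 to 0.178 in WT and at 0 in the second group, and Tpsab1 was near 0 in both. Erythroid markers were lower for 6 of 8 and higher for 2, with sums of 9510 to 10215 and 5287 to 5690, whereas megakaryocyte markers, 4 of 6 tested lower and 2 higher, had sums of 490 to 517 and 509 to 523. Of 3 tested stromal and endothelial markers 2 were lower and 1 higher. Their list had sums of 40.5 to 42.5 and 40.6 to 40.8, and Lum was at 0 in all libraries. Fewer cells of a type and less RNA per cell cannot be told apart in these bulk libraries, and the part of these markers in the differences of Srgn, Chst15 or any other gene was not tested.

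The labelled cell type was read from its markers too. Ptprc, Kit, Cd34, Spi1, Msi2 and Myb were present in both groups, with 3 of these 6 higher and 3 lower, beside 29.3% and 31.3% of all tested genes. The T cell genes Cd3e, Cd4 and Cd8a had group means of at most 0.093, while Ly6g and Itgam, also used to define lineage-positive cells, were present and lower in libraries labelled Sdc1-/-.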

How the data were processed

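RNA-seq libraries were made from 150 ng of RNA with a stranded mRNA kit and read from a single end over 75 bases. The authors deposited 1 signal value for each gene and library, namely kallisto TPM after a rescaling between libraries. The submitters' processing notes name sleuth 0.30.0 and the build mm10, and the kallisto version is not given in the sources used here. Read depth is unknown, so no interval from counting error is given. The test had been designed for plain TPM and was not altered for the rescaled values. A second deposited table holds the authors' own comparison (effect sizes, p-values and q-values) and was not used here.

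Groups and replicate numbers came from the labels. The 12155 of 36083 genes whose mean reached 1 were fitted on log2(value + 1) with limma 3.58.1 (R 4.3.3). The model held group alone, eBayes used a variance trend, tests were two-sided and p-values were adjusted by Benjamini-Hochberg over all genes tested. An exact permutation test of 3 against 3 libraries cannot go below 0.1 and was not used. The fit was tested on simulated data in which 200 of 12155 genes were changed, far fewer than the 7374 called in the real libraries. With changes of 0.25, 0.5 and 1 on the log2 scale, 13.5%, 75% and 96.5% were called in the right direction. A gene that was not called may therefore still differ by a small amount. The 15 alternatives used a pseudocount of 0.1 or 0.5, a minimum mean of 5 or none, 3 other scalings, no variance trend, a replicate block, or 1 library fewer.

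The members and lists were chosen with earlier results of these data known. Every member is named, and values in every library were required for the 10 highest members, for called members with a log2 difference of at least 0.5 and for the highest of each role. Values in every library of other members (Gpc1, Hpse, Xylt1, Ndst1 and Chst11), and the genes Gpc2, Gpc5, Agrn, Nrp1 and Hyal1, were added after their values were seen. Genes outside the 44 are named where called with a log2 difference of at least 0.5, and marker genes only as part of their lists. Some genes of these lists are counted but not reported here by name. Coding sequences and coordinates are from GENCODE M21 on GRCm38, with 1 principal transcript a gene. For the 31 tested members, at most 5.00% of the 31-base words of their transcripts occur in other genes. Bpnt2 was matched as Impad1, and Xist was not analysed here. Python 3.11.15 was used for the tables.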

Additional observations from a re-analysis of the deposited data

How the results depend on the processing

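Of the 18 called members, 9 kept direction and call in every alternative that tested them (Xylt1, B4galt7, Ndst1, Glce, Chpf, Chst11, Chst15, Papss2 and Srgn), and 17 kept their direction. The scaling moved the most: with each library set to a sum of 1000000, 6 members were called higher and 6 lower, and 2367 of all genes were called lower where 3810 had been. That scaling shifts every difference upward by construction. Under it the log2 differences turned positive for B3gat3 (0.0368), Ndst2 (0.0157), Sulf2 (0.0511), Chsy1 (0.105), Chpf2 (0.0705) and Slc35b2 (0.0257), of which Slc35b2 alone had been called. B3galt6, not called, lay between -0.0317, without replicate 3 of the libraries labelled Sdc1-/-, and 0.0770, without replicate 1, when 1 library was left out. Without a minimum mean, 9 of the other pathway genes were called higher where 5 had been, since more genes were tested, and Extl2 and Extl3 were no longer called. Slc35b2 also lost its call under quantile normalization and without the variance trend; the cause was not tested. Leaving out 1 library in turn gave 16 to 18 called members.

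Same-numbered libraries of the groups did not deviate together (correlations of 0.15, -0.01 and 0.02), so the numbers were not taken to pair them. With the replicate block, 17 members were called, 3 higher and 14 lower, and all genes called numbered 7624 where 7374 had been. Slc35b2 was the member not called with the block (limma adjusted p = 0.0523). Not every library correlated best with its own number.

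Read depth is unknown, so the precision of low genes such as the glypicans cannot be stated.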
